A study of Mus musculus with 6 samples.

Results

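The small leucine-rich proteoglycans (SLRPs) described here are 10 genes, Dcn, Lum, Bgn, Fmod, Ogn, Omd, Prelp, Aspn, Kera and Podn, out of 47069 gene identifiers counted in each library. They were chosen as members of this protein family with the contrast of Egr1-/- against Egr1+/+ mice already known, so their differences between genotypes are given as a description and not as a test. RNA came from the inguinal subcutaneous white adipose tissue (SC-WAT) of 2-week-old female C57BL/6 mice (C57BL/6 J in the study's methods), with 3 Egr1+/+ and 3 Egr1-/- animals and a single library for each mouse. The Egr1-/- allele carries LacZ in the 5′ untranslated region of Egr1 and a frameshift ahead of the DNA-binding domain, and it is present from the zygote onwards in every cell, so an effect within the fat pad cannot be separated from an effect of other tissues. The wild-type and mutant mice came from crosses of heterozygous parents, and a pair of them, 1 of each genotype, were littermates that the sample labels do not name. The comparison asks how loss of this zinc-finger transcription factor alters the RNA of a young fat depot, and here what it does to the SLRP genes.

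SLRPs are secreted proteins built around a run of leucine-rich repeats, most of them carrying chondroitin, dermatan or keratan sulfate chains. They bind along collagen fibrils and set the diameter and spacing of the fibrils, and several of them also hold TGF-beta family growth factors or bind receptors on the cell surface. In fat they are made mostly by fibroblasts and stromal progenitors and lie in the matrix around adipocytes. Decorin (Dcn), biglycan (Bgn) and asporin (Aspn) form class I of the family. Lumican (Lum), fibromodulin (Fmod), keratocan (Kera), PRELP (Prelp) and osteomodulin (Omd) form class II, osteoglycin (Ogn) belongs to class III, and podocan (Podn) to a separate class.

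Gene counts per mouse totalled 29661984 to 42357981, of which mitochondrially encoded genes took 50.0% to 66.3%, with the highest share in Egr1-/- replicate 1. For Egr1 itself the 3 wild-type libraries held 353, 241 and 711 counts, while 103, 84 and 57 counts remained in the mutant ones. Its log2 fold change was -2.19 ± 0.30 (SE), and its p was 0.0878 after adjustment in the quasi-likelihood test of edgeR, 3.87e-10 after adjustment in DESeq2, and 0.1 in an exact two-sided permutation test, the smallest value that 3 mice against 3 allow. Every Egr1-/- mouse was below every Egr1+/+ mouse, as the genotype labels state. The allele is an insertion with a frameshift and not a deletion, so transcript from it could still be counted. Levels of a gene are given below as CPM (counts scaled to the library total and the TMM factor of edgeR), and changes as log2 fold changes of Egr1-/- over Egr1+/+ from the fit over all 17667 genes that passed the filter on low counts.

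The members lie at 5 places in the genome (GRCm38, GENCODE M21). Chromosome 10 holds Dcn (97479609 to 97518143), Lum (97565128 to 97572703) and Kera (97606879 to 97613692), each on the plus strand, with 46.98 kb between Dcn and Lum and 34.17 kb between Lum and Kera. Chromosome 13 holds Aspn (49544443 to 49567565), Omd (49582462 to 49592822) and Ogn (49608046 to 49624501), all on the plus strand and 14.9 kb and 15.22 kb apart. The family relative Ecm2 starts this row, 11.65 kb before Aspn. Chromosome 1 holds Prelp (133910304 to 133921414, minus strand) and Fmod (134037254 to 134048277, plus strand), 115.84 kb apart. Bgn lies on chromosome X (73483602 to 73495933, plus strand) and Podn on chromosome 4 (108014791 to 108096445, minus strand). All of them are protein-coding genes. The exons of Prelp overlap those of the antisense gene Gm15851 over 350 bases, 9.68% of its merged exon length, and those of Aspn overlap Cenpp, on the other strand, over 7 bases.

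RefSeq promoter windows, from 250 bases before to 50 bases after a start on GRCm38.p6, were at hand for 8 of the 10 members, with 9 windows in all since Podn has 2. Dcn and Lum were not among them. The bases from 120 before the start up to the start are printed for 4 members, namely Aspn and Ogn, whose levels did not overlap between genotypes, and Bgn and Prelp, whose levels did. Each runs 5′ to 3′ on the strand of its gene, and capitals mark the letters GGGCGG (GC box) or CCAAT on either strand.
Aspn (chr13:49544323-49544442, plus strand): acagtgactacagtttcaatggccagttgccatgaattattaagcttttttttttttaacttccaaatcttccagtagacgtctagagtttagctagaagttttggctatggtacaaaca
Ogn (chr13:49607895-49608014, plus strand): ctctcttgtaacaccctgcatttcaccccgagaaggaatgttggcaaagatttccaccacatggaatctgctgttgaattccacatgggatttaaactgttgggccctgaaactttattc
Bgn (chrX:73483481-73483600, plus strand): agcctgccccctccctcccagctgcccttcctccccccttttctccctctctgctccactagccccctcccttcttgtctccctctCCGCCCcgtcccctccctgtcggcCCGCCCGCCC
Prelp (chr1:133921402-133921521, minus strand): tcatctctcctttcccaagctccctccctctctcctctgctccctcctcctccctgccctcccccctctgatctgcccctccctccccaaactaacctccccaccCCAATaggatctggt
The windows of Aspn and Ogn were poor in G and C, at 31.0% and 42.3%, and those of Bgn and Prelp richer, at 63.7% and 55.3%, against a median of 52.7% over 32851 windows. Of the members not printed, Omd had 37.7%, Kera 41.0%, Fmod 51.0% and Podn 63.0% and 77.0%. The levels of each of these overlapped between genotypes, so low G and C content was not particular to the separated genes. The letters GCGNGGGCG, a core of the sites that EGR1 binds, were looked for on both strands of the whole windows. They were found in 0 of the 9 member windows and in 5.55% of all windows. The GC box, which shares part of its letters with that core, was in 2 of 9 member windows and 35.7% of all, CCAAT in 4 of 9 and 37.4%, and TATAAA in 2 of 9 (Aspn and Ogn, well upstream of the bases printed) and 13.6%. These are matches of letters in a short window and say nothing of binding.

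Dcn, Lum, Ogn and Aspn had lower levels in each of the 3 Egr1-/- mice than in any Egr1+/+ mouse, with log2 fold changes from -0.88 to -0.81. Bgn, Prelp and Podn were lower on average by smaller amounts, with levels that overlapped between the genotypes, Fmod did not move to one side, and Omd varied too widely among mice to place. Of the 10 members, 9 passed the filter on low counts. Of these 9, 8 had a negative and 1 a positive log2 fold change, with a median of -0.81, against a median of 0.0011 over all tested genes, of which 49.9% were lower. Without Egr1+/+ replicate 2 the median of the members was -0.44, the value of Bgn in that fit. Omd then had -0.35, while Dcn, Lum, Ogn and Aspn had -0.94, -0.83, -0.78 and -0.86. Because the tissue was sequenced whole, fewer cells of a type and less RNA per cell cannot be told apart.

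Of the 9 tested members, 0 were under the adjusted threshold of 0.05 in edgeR (quasi-likelihood test), where 0.017% of all genes did. At an unadjusted p of 0.05, 5 members were lower, against 5.6% of all genes, and 0 were higher, against 5.06%. DESeq2 called 4 of them lower (Dcn, Lum, Ogn and Aspn), against 1.34% of all genes lower and 0.73% higher. The levels of the same 4 members did not overlap between genotypes, as did those of 8.1% of all genes with every Egr1-/- mouse below every Egr1+/+ mouse and 8.15% with every one above. Since the members were chosen with this contrast known, nothing further is read from these counts. Leaving out 1 mouse in edgeR gave 0 called members, except without Egr1-/- replicate 1, the mouse with the highest mitochondrial share. Without that mouse Dcn, Lum and Aspn each had an adjusted p of 0.0484, and 59 of 18258 genes passed. It was the mutant mouse nearest to the wild-type range for these genes, and nothing is read from this fit either.

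**Figure D1:**
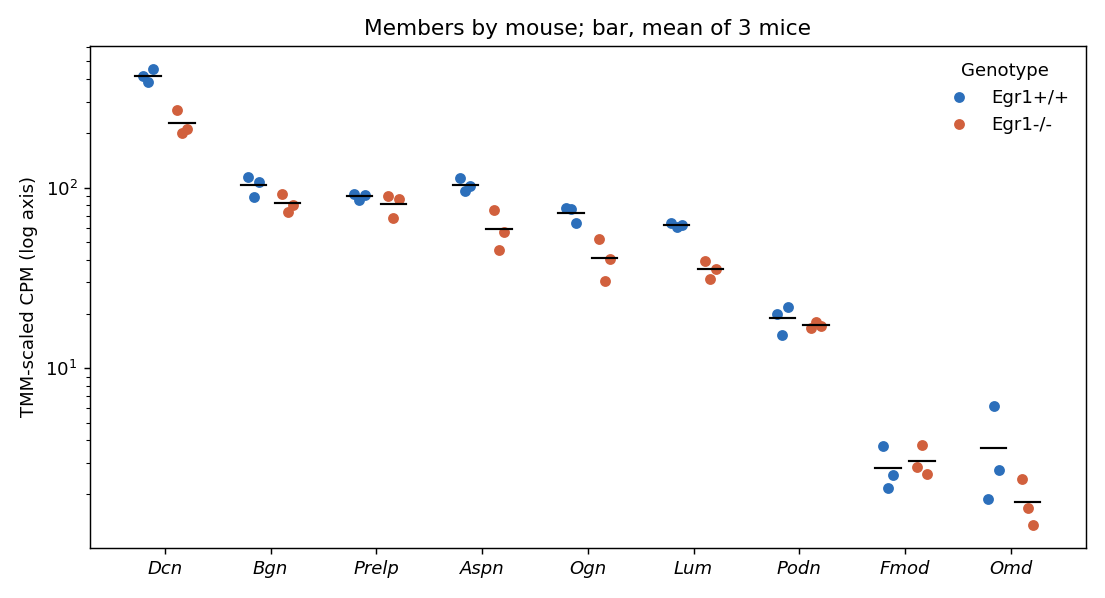
TMM-scaled CPM (log axis) of the 9 tested members in each mouse, blue for Egr1+/+ and orange for Egr1-/-, with a black bar at the mean of 3 mice. The points of Dcn, Aspn, Ogn and Lum are separated by genotype, while those of Bgn, Prelp, Podn, Fmod and Omd overlap.

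In class I, Dcn, the decorin gene and the most abundant SLRP transcript in this tissue, had 414.4, 382.5 and 455.7 CPM in the Egr1+/+ mice and 268.2, 201.9 and 211.0 CPM in the Egr1-/- mice. The lowest wild-type level was well above the highest mutant level. The mean went from 417.5 ± 36.7 CPM to 227.0 ± 36.0 CPM (SD, n = 3 each), 0.544 times the wild-type level, with a log2 fold change of -0.88 ± 0.15 (SE). Leaving out each of the 6 mice in turn gave values from -1.01 to -0.80.

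Aspn encodes asporin, a class I member that binds collagen and TGF-beta and has a run of aspartate residues in place of a glycosaminoglycan site. It had 113.2, 96.3 and 101.6 CPM in the Egr1+/+ mice and 75.6, 45.3 and 56.6 CPM in the Egr1-/- mice. The genotypes did not overlap, though the mutant mice were spread more widely, at a coefficient of variation of 25.9% against 8.34%. The log2 fold change was -0.81 ± 0.18 (SE), and from -1.02 to -0.65 on leaving out each mouse. Of all genes tested, 2.84% had a log2 fold change at or under that of Aspn.

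Bgn, the biglycan gene and the closest relative of Dcn, did not follow it to the same extent. Its levels were 115.3, 88.9 and 107.3 CPM in the Egr1+/+ mice and 92.5, 73.8 and 79.7 CPM in the Egr1-/- mice. Egr1-/- replicate 1 lay above Egr1+/+ replicate 2, so the genotypes overlapped. The log2 fold change was -0.34 ± 0.14 (SE), and from -0.44 to -0.27 on leaving out each mouse.

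In class II, Lum encodes lumican, a keratan sulfate proteoglycan that regulates fibril assembly. Its 3 Egr1+/+ mice were the closest together of any member, at 63.5, 60.9 and 62.2 CPM, a coefficient of variation of 2.06%. The Egr1-/- mice had 39.1, 31.3 and 35.4 CPM, all well under that range. The log2 fold change was -0.82 ± 0.12 (SE), the smallest standard error among the members, and from -0.90 to -0.74 on leaving out each mouse.

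Prelp, a class II member that binds basement membrane heparan sulfate as well as collagen, had 92.1, 85.9 and 91.1 CPM in the Egr1+/+ mice and 89.8, 67.9 and 86.9 CPM in the Egr1-/- mice. Egr1-/- replicates 1 and 3 lay inside the wild-type range and replicate 2 below it. The log2 fold change was -0.14 ± 0.13 (SE), about the size of its error. The antisense overlap named above covers part of the exons of Prelp, and the strand setting of the counting was not given in the sources used here.

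The other class II members were scarce. Fmod, the fibromodulin gene, had 3.70, 2.16 and 2.57 CPM in the Egr1+/+ mice and 2.82, 3.74 and 2.59 CPM in the Egr1-/- mice, with full overlap and a log2 fold change of 0.12 ± 0.26 (SE) that turned to -0.04 without Egr1+/+ replicate 2 and -0.05 without Egr1-/- replicate 2. Omd, the gene of osteomodulin, a keratan sulfate proteoglycan known from bone, had 1.89, 6.16 and 2.74 CPM in the Egr1+/+ mice and 2.43, 1.68 and 1.36 CPM in the Egr1-/- mice. Its log2 fold change of -0.97 ± 0.43 (SE), the most negative among the members, rested on Egr1+/+ replicate 2, and was -0.35 without that mouse. For Kera, the gene of the corneal proteoglycan keratocan, only 2, 9 and 8 counts were found in wild-type and 3, 2 and 0 counts in mutant mice. It did not pass the filter and was not tested. The count of 0 in Egr1-/- replicate 3 allows a level of up to 0.097 CPM, counting error only.

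In class III, Ogn encodes osteoglycin, also called mimecan, which binds fibrillar collagen. It had 77.0, 76.3 and 63.4 CPM in the Egr1+/+ mice and 51.7, 30.4 and 40.5 CPM in the Egr1-/- mice. The genotypes did not overlap, and Egr1-/- replicate 1 came closest to the wild-type range. The log2 fold change was -0.82 ± 0.19 (SE), and from -1.03 to -0.64 on leaving out each mouse.

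Podn, the podocan gene, whose protein binds collagen and restrains the growth of smooth muscle cells, had 20.0, 15.3 and 21.7 CPM in the Egr1+/+ mice and 16.7, 18.1 and 17.2 CPM in the Egr1-/- mice. The 3 mutant mice lay within the range of the wild-type mice. The log2 fold change was -0.14 ± 0.15 (SE).

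Within genotypes most members shared a pattern across mice. Egr1-/- replicate 1 had the highest level of the 3 mutant mice for Dcn, Lum, Bgn, Ogn, Omd, Prelp, Aspn and Kera, 8 of the 10 members, and was the mutant mouse nearest to the wild-type range for each of the 4 separated genes. Egr1-/- replicate 2 was the lowest for Dcn, Lum, Bgn, Ogn, Prelp and Aspn. This order was not particular to the members. Egr1-/- replicates 1, 2 and 3 had summed levels of 4875, 3578 and 4061 CPM for the collagens. For endothelial markers the sums were 487.3, 324.9 and 351.7 CPM. For fibroblast markers they were 714.8, 502.8 and 500.5 CPM, also highest in replicate 1, with replicates 2 and 3 nearly equal. The sums of beige adipocyte, lymphocyte, skeletal muscle, mammary epithelial and tendon markers did not have the order of the collagens. The TMM factor was lowest in Egr1-/- replicate 1, at 0.7874. The coefficient of variation was larger in Egr1-/- than in Egr1+/+ mice for Dcn (15.8% against 8.79%), Lum (11.1% against 2.06%), Ogn (26.1% against 10.6%), Prelp (14.6% against 3.72%), Aspn and the scarce Kera, and smaller for Podn (4.14% against 17.7%), Bgn, Fmod and Omd. With 3 mice in a group these spreads were not tested against each other.

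Levels of different genes were compared per kilobase of merged exons. In the Egr1+/+ mice Dcn led with 71.5 ± 6.29 CPM per kb (SD, n = 3), followed by Aspn with 44.1 ± 3.67, and both stood apart from their neighbours in the order. Ogn (28.2 ± 2.98), Lum (25.4 ± 0.523) and Prelp (24.8 ± 0.922) CPM per kb followed with overlapping ranges. Bgn (17.0 ± 2.22) and Podn (4.45 ± 0.788) each stood alone, Omd (1.599 ± 1.005) and Fmod (0.851 ± 0.24) overlapped, and Kera came last at 0.0794 CPM per kb.

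In the Egr1-/- mice Dcn still led, with 38.9 ± 6.16 CPM per kb. Next came Aspn, at 32.1, 19.3 and 24.1 CPM per kb in the 3 mice, then Prelp (22.6 ± 3.30), Ogn (15.9 ± 4.15), Lum (14.4 ± 1.601) and Bgn (13.4 ± 1.57) CPM per kb, each of which overlapped its neighbour in the order. Podn (4.05 ± 0.168), Fmod (0.923 ± 0.185), Omd (0.810 ± 0.245) and Kera (0.0226) had the lowest CPM per kb. The summed level of the 10 members was 217.9 ± 10.2 CPM per kb in Egr1+/+ mice and 136.2 ± 22.5 CPM per kb in Egr1-/- mice.

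The length used changed the place of some members in this order. The merged exons of Dcn span 5838 bases and those of Bgn 6099 bases, against 1758 and 2419 bases for their coding transcripts, so division by merged exons gives these genes low values. Per kilobase of coding transcript, Dcn had 237.5 CPM in Egr1+/+ and 129.1 CPM in Egr1-/- mice, and Bgn 42.9 and 33.9 CPM. On this scale Bgn overlapped Aspn in both genotypes, and Dcn led in both as before.

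**Figure D2:**
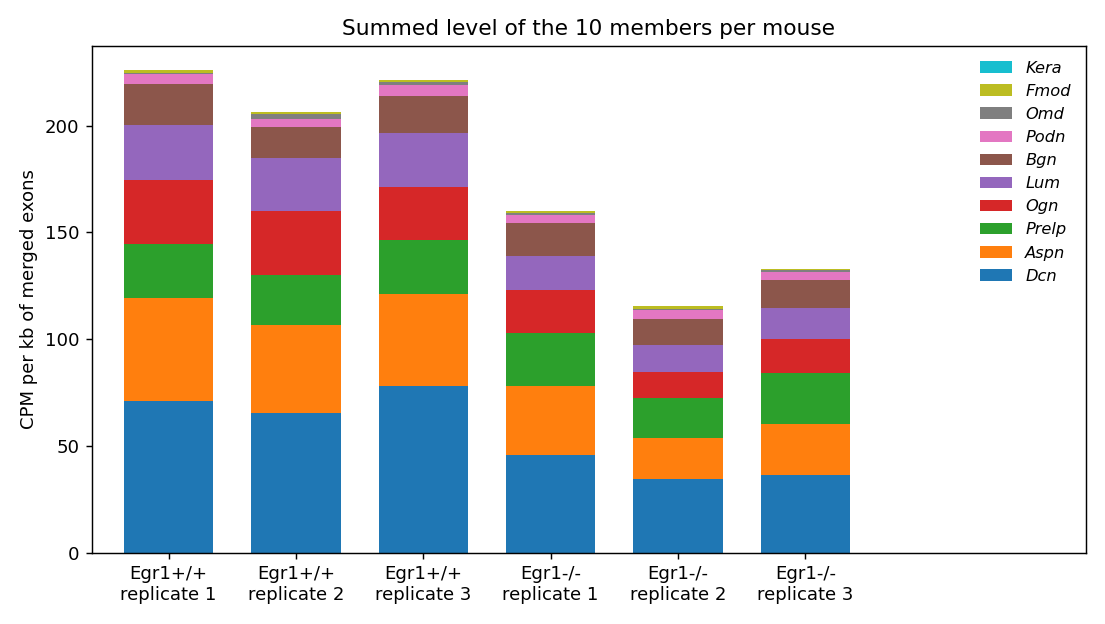
CPM per kb of merged exons of the 10 members, stacked, in each of the 6 mice. The stacks of the Egr1-/- mice are shorter than those of the Egr1+/+ mice, most of all in the blue (Dcn) and orange (Aspn) parts, while the green part (Prelp) is nearly as tall, and Egr1-/- replicate 1 is the tallest of the mutant mice.

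The make-up of the family transcript pool differed accordingly. Prelp made up 11.4 ± 0.12% of the summed CPM per kb in Egr1+/+ mice and 16.6 ± 1.32% in Egr1-/- mice (SD, n = 3 each). The share of Bgn was 7.79 ± 0.666% and 9.92 ± 0.509%, and that of Podn 2.04 ± 0.287% and 3.04 ± 0.615%. Dcn held 32.8 ± 2.15% and 28.6 ± 1.39% of the pool. For Prelp, Bgn, Podn and Fmod every Egr1-/- mouse had a larger share than any Egr1+/+ mouse, and for Dcn and Lum every Egr1-/- mouse had a smaller one. Shares of a sum restate the levels above, and a larger share does not say that the level of a gene rose. Per kilobase of coding transcript the share of Dcn was 57.6 ± 2.18% and 52.0 ± 1.47%, and that of Prelp 6.03 ± 0.187% and 9.1 ± 0.855%, and the same genes were separated except Lum, which overlapped.

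Ratios of levels within a mouse do not depend on the scaling between libraries. The pairs were chosen after the levels were seen, with members whose genotypes did not overlap over members whose genotypes did, so the ratios restate the levels above on another scale. The ratio of Dcn to Bgn CPM was 3.59, 4.30 and 4.25 in wild-type mice against 2.90, 2.74 and 2.65 in mutant mice. The ratio of Lum to Prelp was 0.689, 0.709 and 0.683 against 0.435, 0.460 and 0.408, and both ratios were separated by genotype. Aspn over Bgn went from 1.0 ± 0.0707 to 0.714 ± 0.102 and Ogn over Prelp from 0.807 ± 0.0993 to 0.496 ± 0.0692 (SD, n = 3 each), again without overlap. A ratio does not say which of its genes moved.

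Against stromal genes the picture was mixed. Dcn over Pdgfra, a receptor that marks fibroblasts and progenitors, was 4.31 ± 0.134 in Egr1+/+ and 3.25 ± 0.167 in Egr1-/- mice, with no overlap. Dcn over Col1a1, a chain of type I collagen, was 0.507 ± 0.0712 and 0.423 ± 0.0182, and Dcn over Dpt, the gene of the decorin-binding protein dermatopontin, was 1.02 ± 0.107 and 0.936 ± 0.0936. Both of these overlapped between genotypes, as did Bgn over the mural and fibroblast receptor Pdgfrb at 2.44 ± 0.30 and 2.07 ± 0.121.

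**Figure D3:**
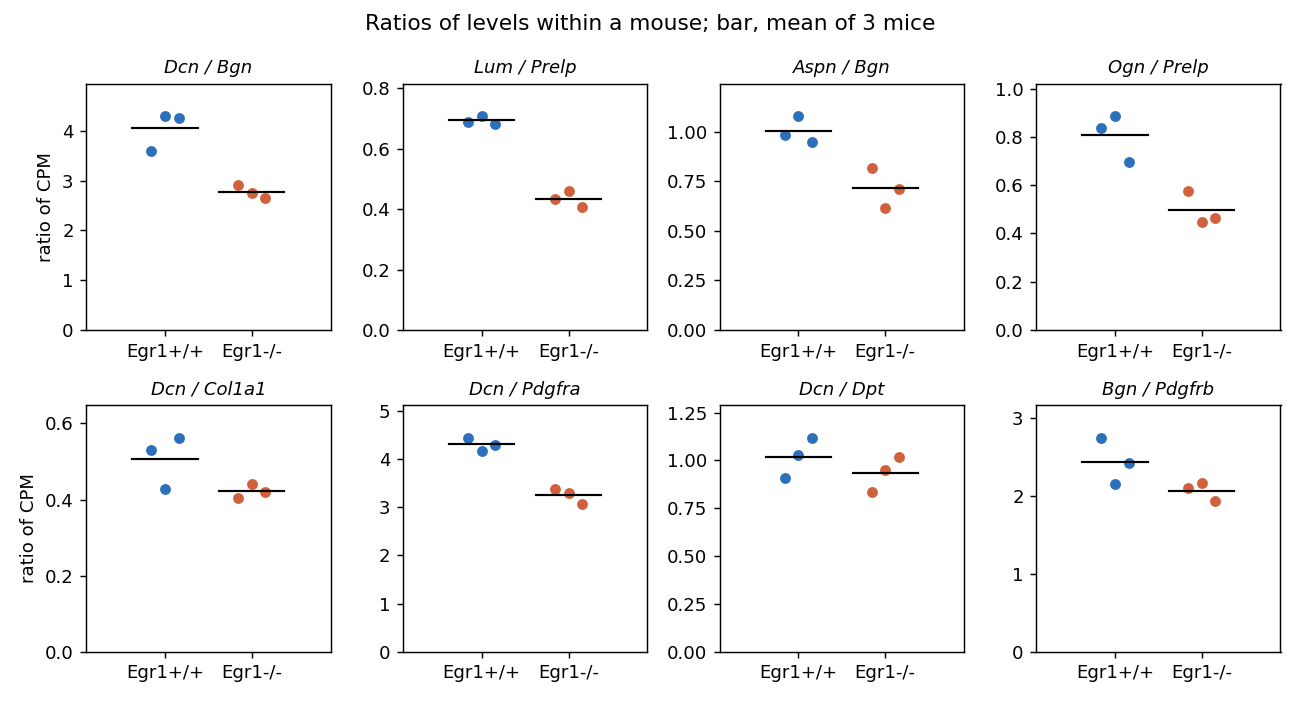
Ratios of CPM within a mouse for 8 gene pairs, each panel with its own linear axis from 0, points for mice and a black bar for the mean of 3 mice. Dcn/Bgn, Lum/Prelp, Aspn/Bgn, Ogn/Prelp and Dcn/Pdgfra are separated by genotype, and Dcn/Col1a1, Dcn/Dpt and Bgn/Pdgfrb overlap.

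The changes are also given by place in the genome. On chromosome 10 the median log2 fold change of Dcn and Lum was -0.85, with Kera not tested, and on chromosome 13 that of Aspn, Omd and Ogn was -0.82, with Omd resting on a single mouse as said above. On chromosome 1 Prelp had -0.14 and Fmod 0.12, and the scarce relative Optc, 2.3 kb from Prelp, had -0.53 ± 0.66 (SE). Bgn on chromosome X had -0.34 and Podn on chromosome 4 had -0.14. Ecm2, which encodes a decorin-like matrix protein and stands first in the chromosome 13 row, was not used to choose the members. It had 32.8, 21.6 and 26.9 CPM in the Egr1+/+ mice and 19.3, 14.9 and 18.1 CPM in the Egr1-/- mice, without overlap. Its log2 fold change was -0.64 ± 0.17 (SE), with an adjusted p of 0.239 in edgeR and 0.0349 in DESeq2. No test of position was made, and Dcn and Lum on chromosome 10 and Aspn and Ogn on chromosome 13 all lay between -0.88 and -0.81.

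**Figure D4:**
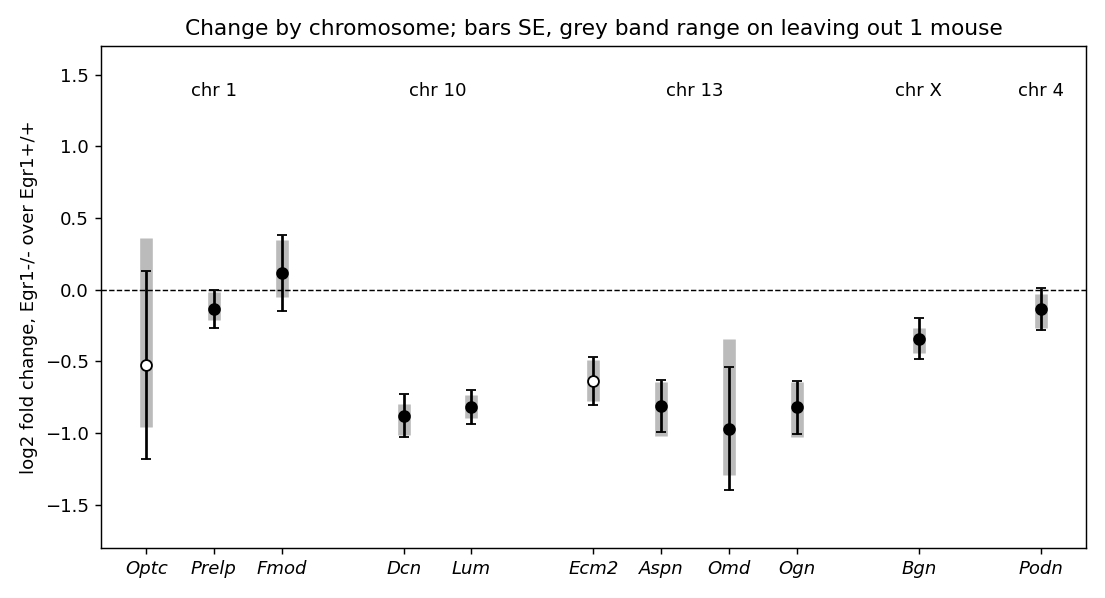
Log2 fold change of Egr1-/- over Egr1+/+ for SLRP genes grouped by chromosome in genome order, filled points for members and open points for the relatives Optc and Ecm2. Bars are the SE of the fit and grey bands the range on leaving out each of the 6 mice. The genes of chromosomes 10 and 13 lie below 0 throughout, with the widest bars and band among members for Omd, and Optc and Fmod have bands on both sides of 0.

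Of 9 further SLRPs and close relatives, 6 were tested. Of these, 4 had negative and 2 positive log2 fold changes, with a median of -0.34, and 0 passed the adjusted threshold in edgeR, 1 lower gene (Ecm2) at an unadjusted p of 0.05 (5.6% of all genes), and the same gene in DESeq2 (1.34%). Apart from Ecm2 their levels were below 2 CPM in every mouse. Podnl1, the closest relative of Podn, had a log2 fold change of -0.51 ± 0.36 (SE) and Nyx, the nyctalopin gene, 0.62 ± 0.45, each with overlapping genotypes. Epyc, Chad and Nepn had too few counts to test.

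The enzymes that build the chains on SLRP cores had changes in both directions. Of 25 tested genes of linker, chondroitin and dermatan sulfate synthesis, 17 had negative and 8 positive log2 fold changes, with a median of -0.10, and 0 passed the adjusted threshold in edgeR. At an unadjusted p of 0.05, 4 were lower and 3 higher, against 5.6% and 5.06% of all genes, and DESeq2 called 2 lower, against 1.34%. Those were Dse, the epimerase that turns chondroitin into dermatan sulfate, and Ugdh, which makes the UDP-glucuronate that the chains are built from. Dse had 34.9, 31.0 and 37.7 CPM in the Egr1+/+ mice and 26.3, 19.6 and 21.5 CPM in the Egr1-/- mice, a log2 fold change of -0.62 ± 0.14 (SE) with an adjusted p of 0.193 in edgeR and 0.0108 in DESeq2. Ugdh had -0.66 ± 0.15, with 0.202 and 0.0134. Csgalnact2, which starts chondroitin chains, had -0.38 ± 0.10, with an adjusted p of 0.234 in edgeR and 0.087 in DESeq2. Of 8 tested genes of keratan sulfate synthesis and tyrosine sulfation, the modifications of class II members, 2 were lower and 6 higher, with a median of 0.09, and 0 passed the threshold in edgeR at an adjusted or unadjusted p or in DESeq2. The 3 with the lowest p were Chst4 at 0.95 ± 0.43, Tpst1 at -0.23 ± 0.17 and B4galt4 at -0.23 ± 0.19 (SE).

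Most of the collagens that SLRPs bind had lower levels in Egr1-/- mice. Of 10 genes of types I, III, V, VI, XII and XIV, 9 had every Egr1-/- mouse below every Egr1+/+ mouse, against 8.1% of all genes, and log2 fold changes between -0.76 and -0.33. The median over the 10 was -0.55. In edgeR 0 were past the adjusted threshold and 9 an unadjusted p of 0.05 (5.6% of all genes were lower by that rule), and DESeq2 called 5 lower (1.34% of all genes). Col14a1, whose fibril-associated protein binds decorin, had 201.1, 195.5 and 184.7 CPM in the Egr1+/+ mice and 128.7, 107.3 and 108.2 CPM in the Egr1-/- mice. Its log2 fold change of -0.76 ± 0.12 (SE) was the most negative, with an adjusted p of 0.146 in edgeR and 4.83e-06 in DESeq2. Col5a2, a chain that limits fibril width, had -0.67 ± 0.15, with 0.19 and 0.0016, and Col1a1 had -0.62 ± 0.17, with 0.242 and 0.00855. The exception was Col12a1, at 54.1, 31.4 and 58.3 CPM against 57.7, 35.6 and 53.4 CPM, a log2 fold change of 0.03 ± 0.25.

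Of 18 genes of growth factors and receptors known to bind SLRPs, 16 had negative and 2 positive log2 fold changes, with a median of -0.20. In edgeR 0 were past the adjusted threshold and 3 were lower at an unadjusted p of 0.05 (5.6% of all genes), DESeq2 called 0, and 4 had every Egr1-/- mouse below every Egr1+/+ mouse (8.1% of all genes). The 3 were Tgfb2, a TGF-beta ligand, at -0.72 ± 0.24 (SE), Tlr4, an innate immune receptor bound by biglycan, at -0.39 ± 0.16, and Itga2, a collagen receptor subunit, at -0.45 ± 0.19, with edgeR adjusted p of 0.325, 0.414 and 0.445.

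Proteases that cut SLRPs, with the procollagen enhancer gene Pcolce, had 8 negative and 2 positive log2 fold changes among 10 tested genes, with a median of -0.43. In edgeR 0 were past the adjusted threshold and 6 were lower at an unadjusted p of 0.05, against 5.6% of all genes. DESeq2 called 2 lower, against 1.34%, namely the membrane metalloprotease gene Mmp14 at -0.54 ± 0.14 (SE, DESeq2 adjusted p of 0.0296) and the gelatinase gene Mmp2 at -0.52 ± 0.13 (0.0305), each with 0.227 in edgeR. The aggrecanase gene Adamts5 had -0.45 ± 0.14, with an adjusted p of 0.291 in edgeR and 0.0986 in DESeq2.

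Proteoglycans of other families were divided. Among 22 tested genes, 12 had negative and 10 positive log2 fold changes, with a median of -0.12, and 0 passed the adjusted threshold in edgeR, with 5 lower and 2 higher at an unadjusted p of 0.05, against 5.6% and 5.06% of all genes. DESeq2 called 3 lower and 1 higher, against 1.34% and 0.73%. The syndecan gene Sdc2 had a log2 fold change of -0.50 ± 0.12 (SE) and the glypican gene Gpc3 -0.55 ± 0.14, with DESeq2 adjusted p of 0.0448 and 0.0288. Cspg4, the NG2 proteoglycan of mural cells, had 0.65 ± 0.17, with 0.0297. Their edgeR adjusted p were 0.214, 0.229 and 0.227. Vcan, the versican gene, had the most negative log2 fold change of this list, -0.77 ± 0.21 (SE), without overlap between genotypes. Its adjusted p was 0.242 in edgeR and 0.0135 in DESeq2.

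**Figure D5:**
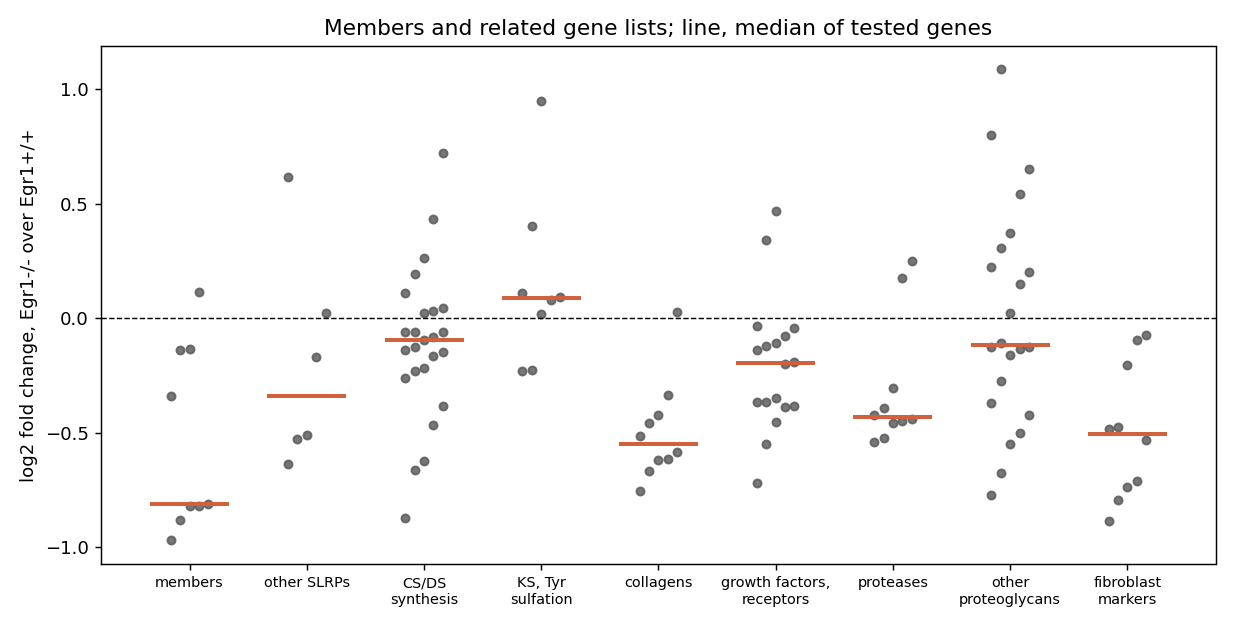
Log2 fold change of Egr1-/- over Egr1+/+ for each tested gene (points) of the members and 8 related lists, with the median of each list as a line. CS/DS is chondroitin and dermatan sulfate and KS keratan sulfate. The medians shown are -0.81 for the members, -0.55 for the collagens and -0.51 for fibroblast markers. Without Egr1+/+ replicate 2 the median of the members is -0.44, with Dcn, Lum, Ogn and Aspn from -0.94 to -0.78. The order of the lists was not tested.

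Most markers of the cells that make SLRPs were lower as well. All 10 fibroblast and stromal progenitor markers tested had negative log2 fold changes, with a median of -0.51, and 6 of the 10 had no overlap between genotypes (8.1% of all genes). Their summed level was 862.8 to 918.4 CPM in Egr1+/+ mice and 500.5 to 714.8 CPM in Egr1-/- mice, the highest mutant sum being that of Egr1-/- replicate 1. Cd34 had -0.71 ± 0.17 (SE) and Dpt -0.74 ± 0.19, with edgeR adjusted p of 0.204 and 0.227. Pdgfrb (-0.10 ± 0.12), Thy1 (-0.07 ± 0.17) and Fbln1 (-0.21 ± 0.23) overlapped between genotypes, with changes smaller than their SE. In edgeR 0 of the 10 markers were past the adjusted threshold, 7 were lower at an unadjusted p of 0.05 (5.6% of all genes), and DESeq2 called 5 lower (1.34%). The part of fibroblast content in the lower SLRP levels was not tested.

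Among markers of other cell types, 0 of those of macrophages, Schwann cells and beige adipocytes passed the adjusted threshold in edgeR (0.017% of all genes did). Over all genes, DESeq2 called 1.34% lower and 0.73% higher. Without overlap between genotypes, 8.1% of all genes were lower and 8.15% higher in Egr1-/- mice. All 5 macrophage markers had negative log2 fold changes, with a median of -0.45, 2 called by DESeq2, 3 without overlap between genotypes, and summed levels of 279.4 to 363.0 CPM in Egr1+/+ and 212.0 to 248.7 CPM in Egr1-/- mice. The 4 Schwann cell markers had a median of -0.55, with 2 called by DESeq2 and 3 without overlap, and summed levels of 226.1 to 316.4 and 148.0 to 188.9 CPM. The 5 beige adipocyte markers had positive log2 fold changes, with a median of 1.08, all 5 called by DESeq2 and without overlap, and summed levels of 487.8 to 637.1 and 880.3 to 1476 CPM. The 8 general adipocyte markers were divided, 4 lower and 4 higher, from -0.41 to 0.77 with a median of 0.01. DESeq2 called 1 of them higher (Dgat2), edgeR 0, and 1 was lower and 2 higher without overlap. The adipocyte origin of the tissue was plain at summed levels of 7604 to 8284 and 6707 to 7785 CPM. Endothelial, mural, lymphocyte and mammary epithelial markers had medians of 0.01, -0.27, 0.43 and 0.15, with summed levels that overlapped between genotypes. Of the 4 mural markers 3 had negative log2 fold changes and 1, Cspg4, a positive one of 0.65. Skeletal muscle markers varied from 191.1 to 3117 CPM in Egr1+/+ and from 88.0 to 2450 CPM in Egr1-/- mice without following genotype, and with their level as a covariate the median of the SLRP members was -0.83. Of the tendon markers Scx and Tnmd did not pass the filter, while Mkx (-0.35 ± 0.57, SE) and Thbs4 (0.19 ± 0.31), the latter at 2.78 to 5.69 CPM, did and overlapped between genotypes. Of the cartilage and bone markers Col2a1, Sp7, Bglap and Ibsp did not pass it, and Acan (0.20 ± 0.55) did, with overlap. Fmod and Omd are known from these tissues. The part of these cell types in the result was not tested.

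Across the 6 mice, the genes with the log2 CPM most like that of Dcn, members left out, were Fap (Pearson r of 0.9984), Abi2 (0.9974), Sfrp4 (0.9965), Aebp1 (0.9956) and Dnm1 (0.9956). Fap encodes the fibroblast activation protein, Sfrp4 a secreted Wnt antagonist and Aebp1 a collagen-binding matrix protein. Sfrp4 differed more than Dcn, with 20.6, 18.1 and 28.4 CPM in the Egr1+/+ mice and 10.1, 5.13 and 5.92 CPM in the Egr1-/- mice and a log2 fold change of -1.67 ± 0.26 (SE, edgeR adjusted p of 0.146). Among members, the r with Dcn was 0.982 for Lum, 0.96 for Aspn, 0.915 for Ogn, 0.883 for Bgn, 0.65 for Prelp, 0.58 for Omd, 0.42 for Podn and -0.256 for Fmod. These 6 points share the genotype difference and the library scaling and are given as a description.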

How the data were processed

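The authors mapped strand-specific, ribosomal RNA-depleted libraries to GRCm38 with TopHat2 and Bowtie2, guided by GENCODE M8, and deposited raw read counts per gene from featureCounts, 1 file per mouse, not normalized. Its settings for strand and multimapping were not given in the sources used here, and the workflow that the study links to was not used here. Labels and methods disagree on single- or paired-end reads. Identifiers were named through GENCODE M21 (46574 of 47069). Genotypes came from the sample titles.

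Counts were fitted in R 4.3.3 with edgeR 4.0.16 (TMM, filterByExpr, quasi-likelihood test, Benjamini-Hochberg over 17667 genes, threshold 0.05). Standard errors were obtained by dividing the absolute log2 fold change by the root of F. Log2 CPM used a prior count of 2. DESeq2 1.42.0, other scalings, no filter, a replicate block and leaving out each mouse were alternatives, with a muscle covariate and coding transcript length added after seeing the data. The fit was tested on simulated data. P-values cover the spread between 3 mice per genotype.

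Members and gene lists were chosen with earlier results of these data known. Named genes are all members, Egr1, the 3 genes of each related list with the lowest p, and the 5 genes most like Dcn. Further marker and ratio genes, with Col12a1 and Vcan, were named after their values were seen. Podnl1 and Nyx are among the 3 further SLRPs with the lowest p.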

Additional observations from a re-analysis of the deposited data

How the results depend on the processing

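Kera, with at most 9 counts per mouse, was too shallow to test. The number of genes past the adjusted threshold, 3 in edgeR, was 366 with DESeq2, 552 without the filter on low counts, 0 with upper-quartile scaling, 6 with the muscle covariate, and 0 to 59 on leaving out 1 mouse (59 without Egr1-/- replicate 1). Members called went from 0 to 4 with DESeq2 and 4 without the filter, and from 0 to 3 on leaving out 1 mouse, and their median log2 fold change ranged from -0.90 to -0.44. The -0.44 was the value of Bgn without Egr1+/+ replicate 2, where Dcn, Lum, Ogn and Aspn had -0.94 to -0.78. For related lists with 0 calls in edgeR, DESeq2 and the fit without the filter called 1 and 1 of the further SLRPs, 2 and 3 of chondroitin and dermatan sulfate synthesis, 5 and 3 collagens, 2 and 1 proteases, and 4 and 4 other proteoglycans. Egr1 passed at -2.19 in DESeq2, -2.18 without the filter, -2.38 with the muscle covariate and -2.35 without Egr1-/- replicate 1 (edgeR adjusted p of 0.0484), and ranged from -2.39 to -1.85 on leaving out 1 mouse. Fmod reversed to -0.036 without Egr1+/+ replicate 2 and to -0.053 without Egr1-/- replicate 2, with a highest value of 0.345 on leaving out 1 mouse. The causes were not tested.

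The labels do not say whether the replicate numbers pair the mice. The deviations of same-numbered mice from their genotype means correlated at -0.0888, 0.106 and -0.126. With 3 mice per genotype these values cannot show whether a pair were littermates. In the fit that took the replicate numbers as a block, 0 genes passed, the members' median was -0.82 and Dcn had -0.89 with an edgeR adjusted p of 0.211.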
